A study of Mus musculus with 12 samples.

Results

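The genes described here are 45 DNA replication and S phase genes, chosen by name for their roles in copying the genome and followed through every library of a mouse kidney injury study. The choice was made with earlier results of these data known. All 45 were found in the deposited table, as 75 of its 25790 transcripts and 45 of its 13465 genes. The values of a gene's transcripts were summed. They cover the MCM helicase (6 genes), origin licensing and helicase activation (7), the replicative polymerases and primase (5), the sliding clamp, its loader, single-strand binding and Okazaki fragment joining (8), nucleotide supply (5), chromatin assembly and DNA methylation behind the fork (7), S phase entry (3), and fork protection and repair (4).

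RNA came from renal cortex, per the series' design text, in 4 groups of 3 libraries each. The groups were wild-type mice after a sham operation (WT sham), mice lacking Gpx3 in renal tubular epithelial cells after a sham operation (CKO sham), and both genotypes after ischemia-reperfusion injury (WT IRI and CKO IRI). Injury consisted of 30 min of ischemia in both kidneys and 48 h of reperfusion, so each animal was sampled at 1 time. The driver of the tubule-specific deletion, the strain and the age are not given in the sources used here. Nor is it stated that each library was 1 animal, so the p-values describe scatter among libraries, which may not be that among animals. For each gene that scatter was pooled over the 4 groups, with 1 weight per group set by all genes. The extraction protocol in the labels speaks of joint capsule, whereas the tissue field says kidney.

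Before S phase, the MCM ring is loaded at origins by the origin recognition complex with Cdc6 and Cdt1, and it becomes an active helicase when Cdc45 and the GINS complex join. Cyclin E with its kinase partner phosphorylates the retinoblastoma protein and frees E2F factors, which drive transcription of many genes of this set. Most cells of the uninjured adult renal cortex do not divide, while surviving tubular cells are known to re-enter the cell cycle in the days after ischemic injury.

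Promoters of the members were searched for E2F words. The stretches that carry such a word before the start are printed here because 9 members share that feature. RefSeq promoters (GRCm38.p6, 250 bases before to 50 after each start) were available for 37 of the 45 genes. Mcm4, Gins1, Gins2, Pole, Rfc2, Ccne2, Exo1 and Tipin are named only. The 4 E2F words searched were TTTCCCGC, TTTGGCGC, TTTCGCGC and TTTGCCGC, on both strands, and overlapping matches were each counted. In the sequences, which run 5′ to 3′ along the gene's strand, capitals mark the bases of a matched word. In Mcm5 and Mcm6 a pair of words on opposite strands overlaps, so a single capital run holds both.

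Mcm5, chr8:75109318-75109377, plus strand: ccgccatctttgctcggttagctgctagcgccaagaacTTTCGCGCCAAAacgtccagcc
Mcm6, chr1:128359735-128359825, minus strand: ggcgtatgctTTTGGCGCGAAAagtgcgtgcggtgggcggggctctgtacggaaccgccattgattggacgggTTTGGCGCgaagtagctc
Mcm7, chr5:138172031-138172090, minus strand: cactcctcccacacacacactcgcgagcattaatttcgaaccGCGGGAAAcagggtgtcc
Cdc6, chr11:98907971-98908030, plus strand: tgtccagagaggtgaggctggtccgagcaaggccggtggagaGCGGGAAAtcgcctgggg
Pola1, chrX:93632276-93632335, minus strand: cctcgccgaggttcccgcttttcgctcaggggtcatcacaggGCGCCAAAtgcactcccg
Rfc3, chr5:151651209-151651268, minus strand: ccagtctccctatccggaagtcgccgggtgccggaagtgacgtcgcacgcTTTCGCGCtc
Uhrf1, chr17:56304086-56304145, plus strand: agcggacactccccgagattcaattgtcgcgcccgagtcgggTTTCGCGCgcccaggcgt
Dnmt1, chr9:20952825-20952873, minus strand: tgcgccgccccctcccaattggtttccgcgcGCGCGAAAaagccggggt
Hells, chr19:38930886-38930945, plus strand: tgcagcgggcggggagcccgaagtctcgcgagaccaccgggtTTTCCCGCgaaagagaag

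Counting also matches after the start, which add Mcm3, Cdt1, Pold1, Lig1 and Clspn, 14 of the 37 member genes (37.8%) held an E2F word, against 704 of the 27025 genes of the promoter table (2.60%) and 451 of the 9790 tested genes with a promoter there (4.61%). The CCAAT word, searched on both strands, stood in 22 of 37 members (59.5%), 41.1% of all genes and 42.7% of tested genes. TTTGAA or TTCGAA, the words of the cell cycle homology region common in mitosis promoters, stood in 7 of 37 members (18.9%), 21.7% of all genes and 16.5% of tested genes. None of the 5 nucleotide supply genes held an E2F word, nor did E2f1 itself. Rrm2, whose change after injury was the largest of the set in both genotypes on the log2(FPKM + 1) scale, held 1 CCAAT word, in capitals here.

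Rrm2, chr12:24708159-24708218, plus strand: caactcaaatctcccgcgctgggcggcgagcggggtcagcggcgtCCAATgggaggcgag

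These matches are descriptions of letters, not of binding. The log2 change after injury in WT had a median of 1.82 in the 14 genes with an E2F word and 1.78 in the 23 without one.

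Levels are FPKM, fragments scaled to transcript length and library size, so they can be compared between genes per length. Log2 changes are differences of group means of log2(FPKM + 1), given with their SE, and a gene is called where the Benjamini-Hochberg adjusted p of limma's fit over 12469 genes is under 0.05. Values of single libraries are given in the order 1, 2 and 3 for sham, 13, 24 and 49 for WT IRI, and 7, 15 and 29 for CKO IRI. Library sums lay between 391002 and 422328 FPKM, and the read depth behind them is unknown. Gpx3 itself read 5664, 4476 and 5371 FPKM in WT sham and 2501, 3037 and 3299 in CKO sham, but 2788, 3568 and 1075 in WT IRI and 3723, 3025 and 2779 in CKO IRI. The injured libraries are therefore named by their labels, which Gpx3 did not separate.

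The summed level of the 45 genes was higher after injury in both genotypes. It was 157, 145 and 151 FPKM in WT sham and 167, 159 and 147 in CKO sham. After injury it was 786, 690 and 650 in WT and 539, 331 and 845 in CKO, 4.70 and 3.63 times the sham mean. Every injured library lay above every sham library, and the 3 CKO IRI libraries spread over both sides of the WT IRI range. As a share of all FPKM in a library, the set went from 0.0358% to 0.0395% in the 6 sham libraries to 0.0799% in CKO IRI 15 and 0.210% in CKO IRI 29, the lowest and highest injured libraries.

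**Figure D1:**
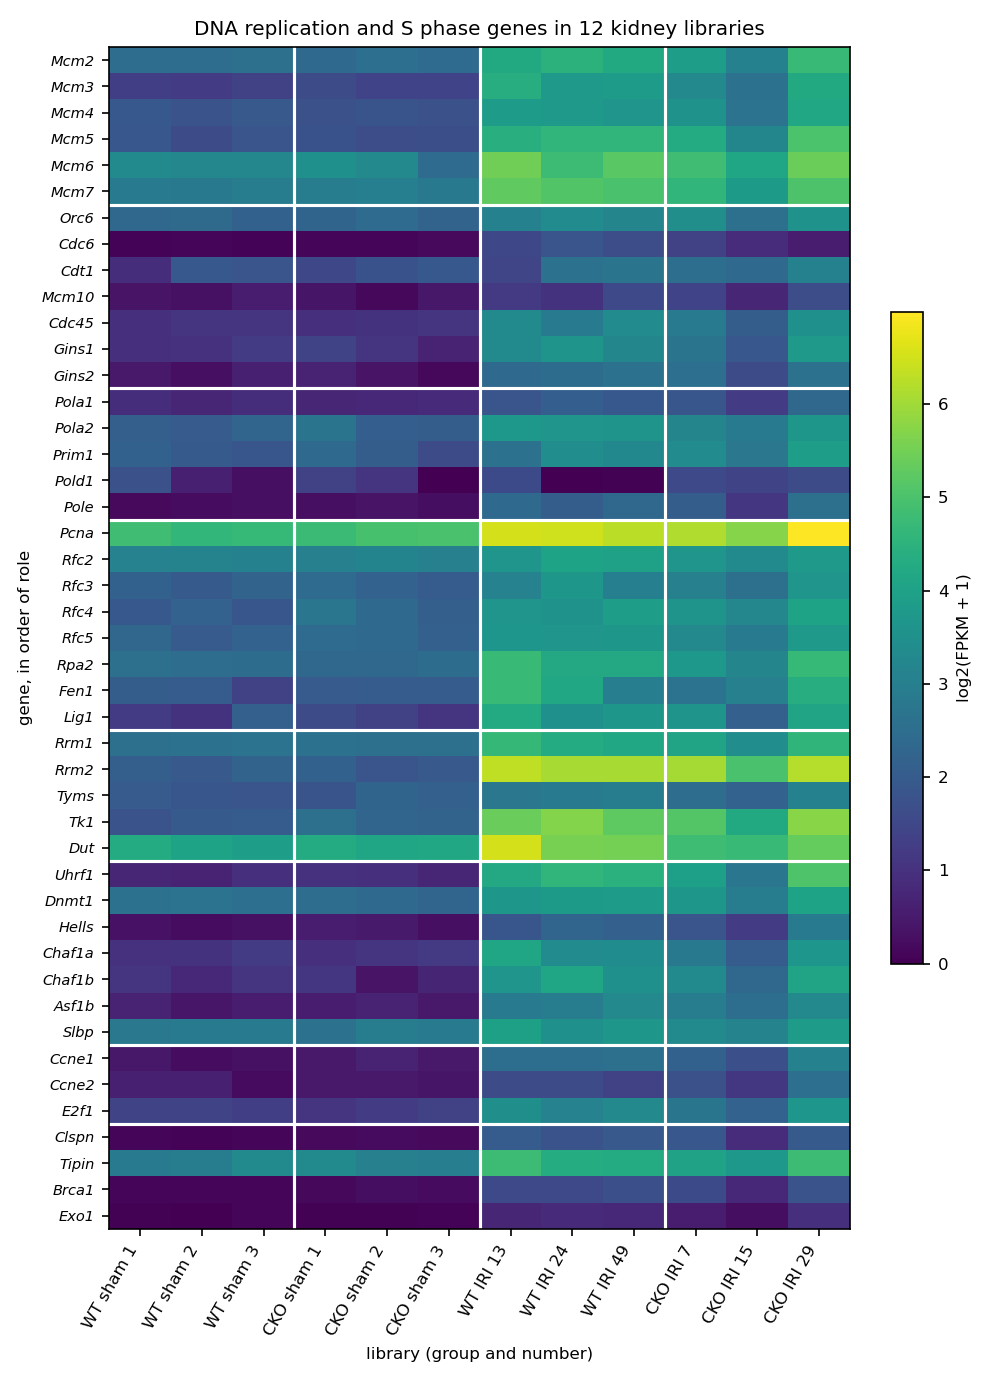
Heat map of log2(FPKM + 1) for the 45 genes (rows, in order of role, separated by white lines) in 12 libraries (columns, 3 per group). Nearly every row is brighter in the 6 injured libraries on the right, CKO IRI 15 is the dimmest of them in 40 of 45 rows, and Pold1 is uneven within both sham groups and WT IRI.

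Among the 44 members that passed the filter of 1 FPKM in at least 3 libraries, 42 were called higher in WT IRI and none lower. Of all 12469 genes tested, 23.5% were called higher and 11.8% lower in that comparison. In CKO IRI 38 of 44 were called higher and none lower, where 6.6% of all genes were higher and 2.02% lower. All 38 were also called in WT. The CKO count fell to 18 without CKO IRI 7, to 22 without CKO sham 3 and to 23 without CKO sham 2. It fell to 18 when the WT groups were left out of the fit. The share of all genes called higher fell too, from 6.6% to 1.79%, 2.61%, 2.78% and 3.26% in that order. In both genotypes, 16 members were called under every alternative that tested them. Of these, 4 (Gins2, Pole, Ccne1 and Clspn) were not tested under the 5 FPKM filter. Among the genes given by library below, Cdc6, Rfc5 and Dnmt1 lost their CKO call without CKO IRI 7, Cdc6 and Rfc5 also without CKO sham 2 or CKO sham 3, and Rfc3, Fen1 and Tyms lost their WT call without WT IRI 24. The median change of the members was 1.80 in WT and 1.41 in CKO, beside 0.12 and 0.08 for all tested genes.

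Without any model, the lowest WT IRI library lay above the highest WT sham library in 43 of 45 members, as it did in 35.1% of all genes in the table. In CKO this held for 44 of 45, against 20.9% of all genes. Part of this is built into the table, which lists only transcripts whose mean reached 0.5 FPKM in at least 1 group. Cdc6, Mcm10, Gins2, Pole, Hells, Asf1b, Ccne1, Ccne2, Clspn, Brca1 and Exo1 reached that level only after injury and so had to differ. The other 34 members reached it in a sham group, and 32 of them were called in WT and 28 in CKO, with median changes of 1.79 and 1.40. The condition acts on transcripts, so 9 of these 34 (Mcm5, Mcm7, Cdc45, Pola2, Rfc5, Fen1, Lig1, Uhrf1 and Dnmt1) also hold 12 transcripts listed only through injured groups, and part of their rise is built in too. In the 25 without such a transcript, 23 were called in WT and 20 in CKO, with medians of 1.78 and 1.39. The filter of 1 FPKM in at least 3 libraries acts in the same way. Apart from Exo1, which failed it, the genes first named here met it only through injured libraries. So did Uhrf1 and Pola1, and Pola1 (0.679 to 0.872 FPKM in sham) is among the 25. With no filter, 43 of 45 members were called higher in WT and 39 in CKO, beside 23.2% and 6.26% of all genes.

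Bulk RNA cannot tell apart more cells in S phase from more RNA per cell, and other cell types moved in the same libraries. The 12 proximal tubule markers summed to 8772 to 10514 FPKM in sham. They summed to 1798 to 5091 after injury in WT and 3033 to 7403 in CKO. Of these markers 12 of 12 were called lower in WT and 2 of 12 in CKO, beside 11.8% and 2.02% of all genes. The 8 injured tubule markers summed to 1029 to 1220 in sham, 4260 to 6200 in injured WT libraries and 2543 to 6705 in injured CKO libraries, with 8 of 8 and 7 of 8 called higher. Macrophage and monocyte markers (12) summed to 114 to 211 in sham and 167 to 337 after injury, with 4 called higher in WT and 1 in CKO, shares of 12 not far from the 23.5% and 6.6% of all genes. Fibroblast and pericyte markers (8) went from 54.9 to 96.3 in sham to 149 to 424 after injury, with 5 and 4 called higher. Endothelial markers (8) went the other way, from 184 to 294 in sham to 51.9 to 155 after injury, with 4 called lower in WT and 5 in CKO. Neutrophil markers (3 of 8 in the table, without Ly6g, Csf3r, Cxcr2, Mpo and Elane) summed to 0.807 to 3.78 in sham and 8.40 to 22.1 after injury. T and NK cell markers (5 of 9, without Cd3d and Trac) summed to 2.43 to 6.75 in sham and 0.171 to 3.56 after injury, and 6 of 8 synovium and cartilage markers, Prg4 and Col2a1 among them, were not in the table. Which cells carried the replication genes was not tested.

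The 6 MCM subunits, the rings that unwind the parental strands, rose in both genotypes, by 1.81 to 2.76 in WT and 1.46 to 2.47 in CKO on the log2 scale. Mcm7, the subunit of smallest p in WT, read 6.53, 6.13 and 6.66 FPKM in WT sham and 38.2, 33.0 and 30.6 in WT IRI. In CKO it read 6.83, 7.05 and 6.07 in sham and 23.1, 13.1 and 31.5 after injury. No injured library overlapped a sham library, and the changes were 2.23 ± 0.23 (SE, adjusted p = 9.84e-05) in WT and 1.54 ± 0.22 (adjusted p = 0.00177) in CKO. Some of its exons overlap exons of Cops6 and Ap4m1 on the other strand and the microRNA genes Mir25 and Mir93 on its own.

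Mcm5 had the largest log2(FPKM + 1) change of the 6 in both genotypes, although by the ratio of group means Mcm3 exceeded it in WT (10.3 against 9.10). Mcm5 read 2.73, 2.03 and 2.56 FPKM in WT sham and 20.1, 23.4 and 23.1 in WT IRI, then 2.39, 2.16 and 2.19 in CKO sham and 18.7, 8.18 and 31.1 in CKO IRI. All injured libraries stood above all sham libraries. The proteins of the ring are used in equal number, yet in sham libraries the most abundant MCM transcript exceeded the least abundant 3.70 to 6.16 times per length. In injured libraries that ratio was lower, 2.48 to 3.21, since Mcm3, the least abundant subunit in sham, rose more (2.69 in WT) than Mcm6 (1.88), the most abundant in 5 of 6 sham libraries.

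**Figure D2:**
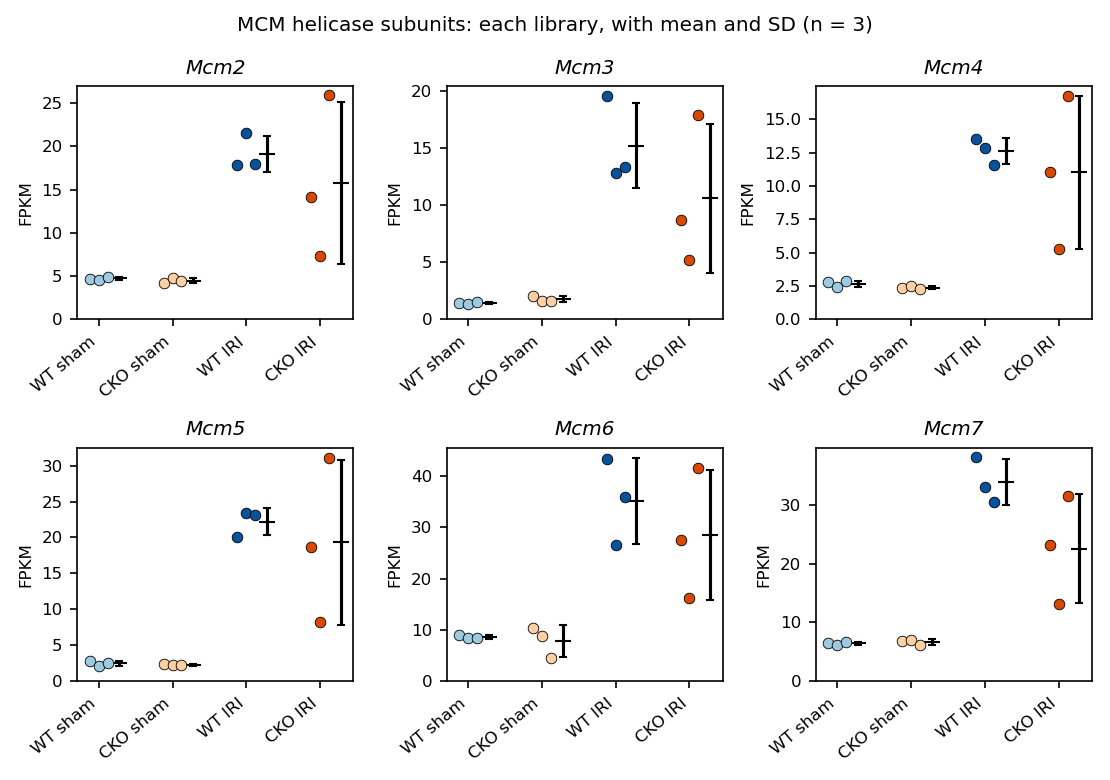
FPKM of Mcm2 to Mcm7 in each library (points, 3 per group) with the group mean and SD (bar), on linear axes that start at 0. Every injured point lies above every sham point, and in each panel CKO IRI 15 is the lowest injured library (for Mcm7 at 13.1 FPKM).

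Of the 7 licensing and activation genes, Orc6, Cdc6, Mcm10, Cdc45, Gins1 and Gins2 were called higher in both genotypes, while Cdt1 was called in neither. Cdc6, the ATPase that helps load the MCM ring, was nearly absent in sham, at 0.040, 0.065 and 0.056 FPKM in WT and 0.060, 0.074 and 0.132 in CKO. After injury it read 1.87, 2.58 and 2.17 in WT and 1.61, 0.841 and 0.467 in CKO. The 3 CKO IRI libraries lay between sham and WT IRI without touching either. Its change was 1.60 ± 0.19 (adjusted p = 2.27e-04) in WT and 0.82 ± 0.18 (adjusted p = 0.0200) in CKO.

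Cdt1, the partner of Cdc6 in loading, read 0.902, 2.79 and 2.59 FPKM in WT sham and 1.78, 5.12 and 5.43 in WT IRI. WT IRI 13 fell inside the sham range, and the change of 0.69 ± 0.45 did not pass (adjusted p = 0.263). In CKO it read 1.83, 2.38 and 2.79 in sham and 4.78, 4.21 and 7.46 after injury, with a change of 0.94 ± 0.44 (adjusted p = 0.219). Those CKO libraries did not overlap, although the test missed its threshold.

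Among the polymerases, Pola1, Pola2, Prim1 and Pole were called higher in both genotypes. Pole, the catalytic subunit of the leading-strand polymerase, read 0.129, 0.180 and 0.231 FPKM in WT sham and 4.20, 3.15 and 4.00 in WT IRI. In CKO the values were 0.226, 0.280 and 0.202 in sham and 3.18, 1.16 and 4.97 after injury. Changes were 2.01 ± 0.27 in WT (adjusted p = 5.51e-04) and 1.61 ± 0.26 in CKO (adjusted p = 0.00436), and injured and sham libraries did not overlap.

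Pold1, the catalytic subunit of the polymerase that copies the lagging strand, stood apart from the rest of the set. It read 2.30, 0.540 and 0.226 FPKM in WT sham and 1.98, 0.012 and 0.035 in WT IRI, then 1.55, 1.07 and a listed 0 in CKO sham and 1.92, 1.68 and 2.06 in CKO IRI. The sham groups and WT IRI each spread widely, whereas the CKO IRI libraries lay close together and all above the CKO sham libraries. Its change was -0.33 ± 0.65 (adjusted p = 0.724) in WT and 0.73 ± 0.62 (adjusted p = 0.522) in CKO, and without WT sham 1 the WT value turned to 0.0891. Only 1 Pold1 transcript is in the table.

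All 8 genes of the clamp, its loader, single-strand binding and Okazaki fragment joining (Pcna, Rfc2, Rfc3, Rfc4, Rfc5, Rpa2, Fen1 and Lig1) were called higher in WT, and all but Rfc3 and Fen1 in CKO. Rfc5, a loader subunit, read 3.93, 3.04 and 3.57 FPKM in WT sham and 11.8, 11.6 and 11.97 in WT IRI. The CKO values were 4.48, 4.21 and 3.39 in sham and 8.85, 6.54 and 12.6 after injury. It rose by 1.51 ± 0.21 in WT (adjusted p = 6.19e-04) and 1.01 ± 0.20 in CKO (adjusted p = 0.0132), with no overlap between injured and sham libraries.

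Pcna, the clamp that holds polymerases on DNA, was the most abundant member in sham, at 27.7, 23.8 and 24.5 FPKM in WT and 26.3, 29.9 and 30.4 in CKO. After injury it read 91.0, 88.3 and 76.0 in WT and 70.0, 51.5 and 125.9 in CKO, a rise of 1.71 ± 0.24 and 1.39 ± 0.24. The highest and the lowest injured libraries were both CKO.

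Rfc3, another loader subunit, read 3.49, 2.95 and 3.66 FPKM in WT sham, 7.54, 11.9 and 7.09 in WT IRI, 4.46, 3.54 and 3.13 in CKO sham and 7.26, 4.93 and 11.5 in CKO IRI. Fen1, the nuclease that trims Okazaki fragments, read 3.17, 3.12 and 1.59 in WT sham, 25.1, 17.1 and 6.87 in WT IRI, 3.02, 3.08 and 3.13 in CKO sham and 5.28, 7.31 and 19.4 in CKO IRI. In both genes injured and sham libraries of a genotype did not overlap, yet the CKO changes of 0.86 ± 0.25 (adjusted p = 0.0556) and 1.33 ± 0.45 (adjusted p = 0.0965) missed the threshold. With only the transcript of highest mean, the WT call of Fen1 was lost (1.38, adjusted p = 0.352).

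Among the genes that supply deoxynucleotides, Rrm2 had the largest log2(FPKM + 1) change of the set in both genotypes. By the ratio of group means, which does not damp low levels, Clspn (48.9), Cdc6 (41.1), Uhrf1 (28.1), Brca1 (26.9) and Exo1 (21.9) exceeded it in WT, and Uhrf1 (20.2) in CKO. Clspn, Cdc6, Brca1 and Exo1 averaged only 0.057, 0.054, 0.076 and 0.034 FPKM in WT sham. They were listed only through injured groups, as were most Uhrf1 transcripts, so part of these ratios is built into the table. Rrm2, the small subunit of ribonucleotide reductase (chr12:24708241-24714146, plus strand), read 3.34, 2.86 and 3.66 FPKM in WT sham and 78.1, 65.9 and 65.9 in WT IRI. CKO libraries gave 3.53, 2.57 and 2.88 in sham and 65.4, 30.5 and 72.7 after injury. The ratio of group means was 21.3 in WT and 18.8 in CKO, and the changes were 4.05 ± 0.26 (adjusted p = 5.61e-06) and 3.76 ± 0.26 (adjusted p = 1.91e-05). By log2(FPKM + 1) change Rrm2 ranked 15 among all tested genes in WT and 6 in CKO.

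Tk1, the thymidine kinase of dividing cells, read 2.43, 2.98 and 3.06 FPKM in WT sham and 41.3, 50.2 and 36.9 in WT IRI. Its CKO values were 4.96, 3.88 and 3.67 in sham, all above WT sham, and 33.8, 17.9 and 52.3 after injury. It rose by 3.51 ± 0.29 (adjusted p = 2.66e-05) in WT and 2.67 ± 0.28 (adjusted p = 2.51e-04) in CKO. Rrm1, the large reductase subunit, rose by 1.78 and 1.42.

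Tyms, which makes thymidylate, read 3.03, 2.63 and 2.56 FPKM in WT sham and 5.78, 6.53 and 6.75 in WT IRI, without overlap. In CKO it read 2.54, 3.81 and 3.41 in sham and 4.68, 3.60 and 7.48 after injury, so CKO IRI 15 fell within the sham range, the only such case among the members in CKO. The change was 0.98 ± 0.21 (adjusted p = 0.00612) in WT and 0.52 ± 0.21 (adjusted p = 0.150) in CKO.

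Dut, the enzyme that clears dUTP so that uracil is not built into DNA (chr2:125247190-125258608, plus strand), read 18.8, 15.5 and 14.2 FPKM in WT sham and 91.0, 45.9 and 45.2 in WT IRI. In CKO it read 18.8, 16.6 and 17.0 in sham and only 27.0, 25.6 and 39.1 after injury. Each injured library exceeded each sham library, and each CKO IRI library lay below each WT IRI library. The rise was 1.78 ± 0.24 (adjusted p = 5.91e-04) in WT and 0.75 ± 0.24 (adjusted p = 0.0752) in CKO.

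The lower Dut sum in CKO IRI lay mainly in 1 of its 2 transcripts. ENSMUST00000082122.13 read 73.1, 28.6 and 29.8 FPKM in WT IRI and 11.96, 15.8 and 21.4 in CKO IRI, with sham values of 10.9 to 16.2. The other, ENSMUST00000051605.8, read 17.9, 17.2 and 15.4 in WT IRI and 14.996, 9.79 and 17.6 in CKO IRI, from 2.64 to 4.84 in sham. The first transcript thus separated the injured genotypes and the second did not. How the authors' quantification shared reads between the pair was not tested.

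All 7 chromatin genes (Uhrf1, Dnmt1, Hells, Chaf1a, Chaf1b, Asf1b and Slbp) were called higher in both genotypes. Uhrf1, which brings Dnmt1 to newly copied DNA, read 0.668, 0.590 and 0.951 FPKM in WT sham and 17.6, 23.4 and 21.0 in WT IRI. The CKO libraries gave 0.977, 0.947 and 0.686 in sham and 14.5, 5.69 and 32.6 after injury, rising by 3.64 ± 0.41 in WT (adjusted p = 1.83e-04) and 3.02 ± 0.40 in CKO (adjusted p = 0.00103). Injured libraries stood clear of sham libraries in both genotypes, but this sum depends on which transcripts the table lists. Of its 4 transcripts, 3 were listed only through injured groups, and the other, ENSMUST00000001258.14, averaged 0.556 FPKM in CKO sham and 0.559 in CKO IRI. With only the transcript of highest mean, neither call held (2.20, adjusted p = 0.0794 in WT and 2.96, adjusted p = 0.0651 in CKO).

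Asf1b, a chaperone that hands histones to the assembly complex, had the smallest p of the chromatin genes in WT. It read 0.614, 0.352 and 0.447 FPKM in WT sham, 6.23, 6.68 and 8.75 in WT IRI, 0.435, 0.577 and 0.4001 in CKO sham and 6.66, 4.75 and 8.69 in CKO IRI. Its injured levels overlapped between genotypes, and the changes were 2.47 ± 0.20 (adjusted p = 2.16e-05) and 2.36 ± 0.19 (adjusted p = 4.61e-05).

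Dnmt1, the maintenance methyltransferase, rose much less, from 5.19, 5.30 and 4.92 FPKM to 11.95, 13.1 and 13.4 in WT and from 4.63, 4.19 and 3.83 to 11.9, 6.77 and 15.6 in CKO. Its changes were 1.17 ± 0.21 (adjusted p = 0.00231) and 1.18 ± 0.21 (adjusted p = 0.00611), and neither call held with only the transcript of highest mean (adjusted p = 0.176 and 0.149). The ratio of Uhrf1 group means was 28.1 in WT and 20.2 in CKO, beside 2.50 and 2.70 for Dnmt1. Both sums include transcripts listed only through injured groups, most of those of Uhrf1, so part of these ratios is built in. Whether the rises of these functional partners differ was not tested.

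The 3 S phase entry genes were called in both genotypes. Ccne1, a cyclin E, read 0.362, 0.170 and 0.244 FPKM in WT sham and 4.73, 4.72 and 4.94 in WT IRI. Levels in CKO were 0.405, 0.600 and 0.399 in sham and 3.50, 2.27 and 7.43 after injury. It rose by 2.21 ± 0.27 (adjusted p = 2.80e-04) in WT and 1.77 ± 0.26 (adjusted p = 0.00199) in CKO. E2f1, an activator E2F, rose by 1.90 ± 0.28 and 1.65 ± 0.27, and Ccne2, the other cyclin E, by 1.06 ± 0.31 and 1.35 ± 0.30.

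Clspn, Tipin and Brca1, which guard stalled or damaged forks, were called in both genotypes. Clspn, the checkpoint mediator, read 0.064, 0.040 and 0.067 FPKM in WT sham and 3.08, 2.43 and 2.88 in WT IRI. Its level in CKO was 0.132, 0.144 and 0.128 in sham and 2.69, 0.864 and 2.95 after injury, with changes of 1.84 ± 0.23 (adjusted p = 3.28e-04) and 1.41 ± 0.22 (adjusted p = 0.00330). Exo1, a repair exonuclease, was not tested because no library reached 1 FPKM. Its highest sham value was 0.059, its WT IRI values were 0.696, 0.821 and 0.706 and its CKO IRI values 0.445, 0.206 and 0.903.

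**Figure D3:**
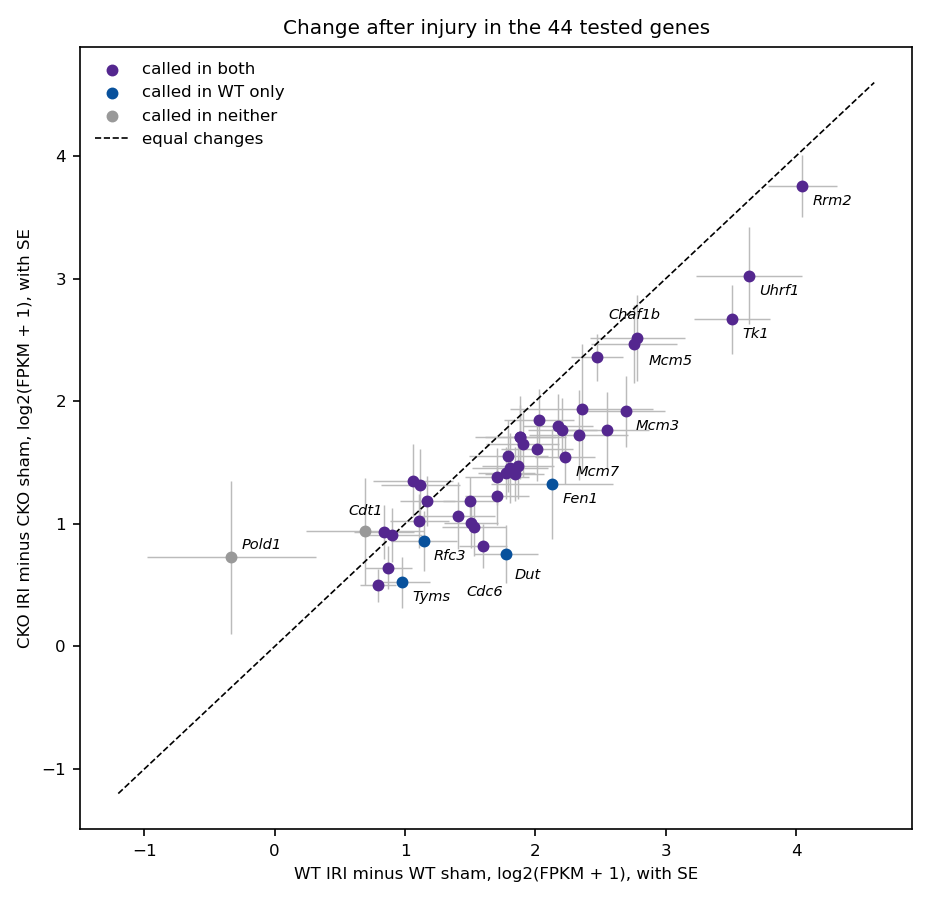
Change after injury in WT (horizontal) and CKO (vertical) for the 44 tested genes, as differences of mean log2(FPKM + 1) with SE bars. The 37 genes below the dashed line of equal changes had a smaller change in CKO than in WT, with Rrm2 at 4.05 and 3.76, and only Pold1 lies left of 0.

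The comparison between genotypes called no member. In sham 0 of 44 passed, where 0.136% of all genes did, and 1 member had an unadjusted p under 0.05. That was Rfc4, which read 2.80, 3.60 and 2.67 FPKM in WT sham and 5.64, 4.21 and 3.34 in CKO sham, a difference of 0.41 ± 0.17 (adjusted p = 0.253) with overlapping groups. Tk1 differed by 0.43 ± 0.20 (adjusted p = 0.289) without overlap and Dnmt1 by -0.24 ± 0.15 (adjusted p = 0.416). The median difference was 0.0099 for the members and 0.0140 for all tested genes.

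After injury 0 of 44 members passed between CKO and WT, where 0.016% of all genes did. The 3 members with an unadjusted p under 0.05, all lower in CKO, were Cdc6 (-0.74 ± 0.22, adjusted p = 0.346), Dut (-0.91 ± 0.30, adjusted p = 0.346) and Mcm7 (-0.64 ± 0.27, adjusted p = 0.380). Cdc6 and Dut were also the 2 of 45 members in which every CKO IRI library lay below every WT IRI library, an arrangement found in 11.6% of all genes. With a weight fitted per library in place of one per group, Dut passed (-0.84, adjusted p = 0.0483), the only one of 44 members under a setting that called 5.8% of all genes. Without WT IRI 13 the Dut difference was -0.59, and without CKO IRI 15 that of Mcm7 was -0.31.

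The genotype by injury interaction, which asks whether the change differs between genotypes, called 0 of 44 members and 0.016% of all genes. Its smallest values were those of Dut (-1.03 ± 0.34, adjusted p = 0.195) and Cdc6 (-0.78 ± 0.26, adjusted p = 0.195), followed by Mcm7 (-0.68 ± 0.32, adjusted p = 0.290). Lesser rises in CKO of 4 genes that missed the threshold there, Rfc3, Fen1, Tyms and Dut, were therefore not shown to differ from WT. These comparisons share the sham and injured libraries with those above.

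The median member was 0.33 lower in CKO IRI than in WT IRI, with 38 of 44 below 0, while the median of all genes was 0.05 lower. That tilt depended on which CKO IRI libraries were included. By the summed level, CKO IRI 15 (331 FPKM) and CKO IRI 7 (539) lay below every WT IRI library (650 to 786) and CKO IRI 29 (845) above them. Without CKO IRI 15 the members' median was 0.01 above WT IRI and 20 of 45 group means were lower in CKO. Without CKO IRI 29 it was 0.60 below, with 43 of 45 means lower.

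CKO IRI 15 was the lowest CKO IRI library in 43 of 45 members and CKO IRI 29 the highest in 44. The median SD of a member's log2(FPKM + 1) was 0.60 in CKO IRI, against 0.20 in WT IRI, 0.12 in WT sham and 0.12 in CKO sham. For all tested genes the median SD was 0.23 in CKO IRI and 0.27 in WT IRI. The SE and p-values rest on group weights set by all genes, 0.66 for CKO IRI and 0.45 for WT IRI. They therefore reflect the members' wider scatter in CKO IRI only in part. Among the WT IRI libraries none led as CKO IRI 29 did in CKO: numbers 13, 24 and 49 were the highest in 20, 14 and 11 members. Tubule markers moved with this order, since CKO IRI 15 had the highest proximal tubule sum of the injured libraries (7403 FPKM) and the lowest injured tubule sum (2543), and CKO IRI 29 had the highest injured tubule sum (6705). Their part in the order of the replication genes was not tested.

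The rise of the MCM, clamp and nucleotide genes was accompanied by mitosis genes, but not in one proportion. The 30 mitosis genes examined (cyclin B, Aurora kinases, Mki67 and others) were all called higher in both genotypes, beside 23.5% and 6.6% of all genes. Their median changes were 3.26 in WT and 2.65 in CKO. Mki67 (0.456 to 0.787 FPKM in sham) and Aurka (0.718 to 0.974) met the filter of 1 FPKM only through injured libraries. Part of such rises is built in, and how many of the other mitosis genes this concerns was not counted. Their sum went from 18.8 to 32.2 FPKM in sham to 680, 578 and 549 in WT IRI and 493, 287 and 393 in CKO IRI. The replication sum was 5.17 to 7.83 times the mitosis sum in sham and 1.09 to 1.19 times in 5 of the 6 injured libraries.

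The sixth was CKO IRI 29, in which the ratio was 2.15. Its replication sum of 845 FPKM was the highest of all 12 libraries, while its mitosis sum was below all 3 WT IRI libraries and CKO IRI 7. Against CKO IRI 7, 44 of 45 replication genes were higher in CKO IRI 29 but only 5 of 30 mitosis genes. The exception among the replication genes was Cdc6, at 0.467 FPKM, its lowest injured value. This concerns 1 library, so no test was made.

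**Figure D4:**
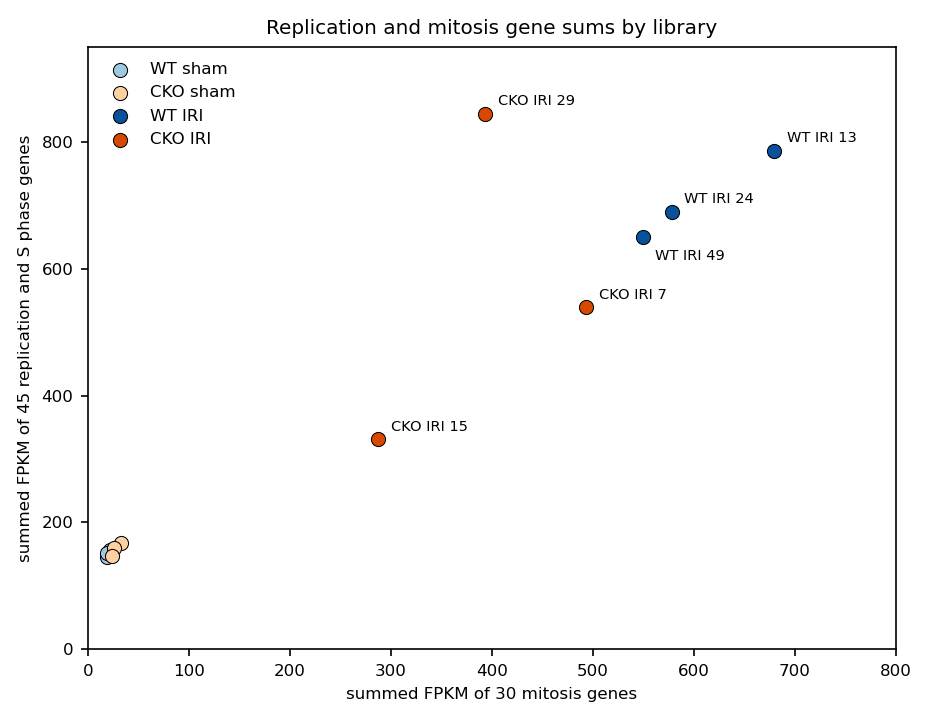
Summed FPKM of the 45 replication and S phase genes (vertical) against 30 mitosis genes (horizontal), with 1 point per library and linear axes from 0. The 6 sham libraries cluster at 145 to 167 FPKM of replication genes, 5 injured libraries lie on a common slope, and CKO IRI 29 lies above it at a ratio of 2.15.

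Genes of the same pathway outside the set had lower median changes. Members and lists were chosen with earlier results of these data known, so this difference may follow in part from the choice. Of 37 other replisome genes tested, 24 were called higher in WT and 13 in CKO, none lower, with median changes of 0.91 and 0.54. Among all genes, 23.5% were called higher in WT and 6.6% in CKO. Dbf4, the activator of the kinase that fires origins, rose by 2.32 ± 0.16 in WT and 1.78 ± 0.16 in CKO. Chtf18, of an alternative clamp loader, rose by 2.17 ± 0.23 and 1.49 ± 0.22. With at most 0.053 FPKM in sham, Chtf18 was listed only through injured groups, so part of its rise is built into the table. Of 23 other S phase chromatin and repair genes, 14 were called higher in each genotype and none lower. Pclaf, a PCNA partner, rose by 4.02 ± 0.31 and 3.38 ± 0.30, but met the filter of 1 FPKM only through injured libraries (0.131 to 0.716 in sham).

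As a group, other genes of deoxynucleotide supply did not share the course of Rrm2 and Tk1. Of 13 tested, 5 were called higher and 3 lower in WT, and 2 higher in CKO, with medians of 0.00 and -0.01. Among all genes, 23.5% were called higher and 11.8% lower in WT, and 6.6% higher in CKO. Dtymk, thymidylate kinase, rose by 1.37 ± 0.17 in WT and 0.66 ± 0.17 in CKO. Dctpp1, a dCTP-cleaving enzyme, rose by 0.93 ± 0.18 in WT, and in CKO its change of 0.43 ± 0.18 was not called. Shmt1 (-0.79 ± 0.13) and Mthfd1 (-0.89 ± 0.16), folate enzymes, and Rrm2b (-0.69 ± 0.18), the reductase subunit used outside S phase, fell in WT. In CKO these 3 were not called, at -0.26, -0.21 and -0.21. The genotype by injury interaction called 0 of the 13 genes, so a difference between genotypes was not shown.

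Of 27 other G1 to S regulators tested, 16 rose and 2 fell in WT, and 12 rose in CKO. Among all genes, 23.5% rose and 11.8% fell in WT, and 6.6% rose in CKO. Ccna2, the S and G2 cyclin, rose by 3.98 ± 0.22 and 3.57 ± 0.22, and the repressor E2f8 by 2.25 ± 0.25 and 2.02 ± 0.24. Part of both rises is built in. Ccna2 (0.711 to 1.01 FPKM in sham) met the filter only through injured libraries, and E2f8 (0.062 to 0.139) was listed only through injured groups. The retinoblastoma family members Rbl2 (-0.98 ± 0.17) and Rb1 (-0.64 ± 0.17) fell in WT, with CKO values of 0.08 and -0.01 that were not called. The genotype by injury interaction called 0 of these 27 genes, so a difference between genotypes was not shown.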

How the data were processed

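The tools listed in the submitters' processing notes are HISAT2 2.1.0, StringTie and cutadapt, and the notes name GRCh38 although the transcript identifiers are mouse. The authors deposited 1 table of transcript levels for 12 libraries, read from its values as FPKM since its header names no unit. Strand setting and depth are not given in the sources used here, so members whose exons overlap other genes (Mcm7, Fen1, Tk1 and 11 others) may share reads. Transcripts were matched without version to GENCODE M21 (25740 of 25790; the other 50 held at most 0.10% of a library) and summed per gene.

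Values were taken as log2(FPKM + 1), and limma 3.58.1 (R 4.3.3) was run on the 12469 genes that reached 1 FPKM in 3 or more libraries, with 1 mean and 1 variance weight per group, a mean-variance trend and Benjamini-Hochberg adjustment within each of 5 contrasts, two-sided. The scale understates changes of low genes. The members, gene lists and this design were chosen with earlier results of these data known. Per-library values are given, in each role group, for the gene of smallest p in WT, for the largest and smallest changes, for genes called in 1 genotype only and for the 3 of smallest p between genotypes; Mcm5, Pcna, Exo1 and the promoter windows were added after their values or matches were seen. Alternatives were pseudocounts of 0.1 and 0.5, no filter or 5 FPKM, quantile and median-of-ratios scaling, equal spread, a weight per library, only the compared groups, the top transcript, each library left out, and a replicate block. The script was tested on simulated data.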

Additional observations from a re-analysis of the deposited data

How the results depend on the processing

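In WT, 32 to 43 members were called higher over all alternatives (42 of 44 as reported), and 30 were called in every one that tested them. The 32 were of 33 tested under the 5 FPKM filter, and the 43 were of 45 tested with no filter. With only the transcript of highest mean, 36 of 43 were called, where 18.4% of all genes were. In CKO, the 38 calls fell to 18 when only the sham and injured CKO groups were fitted. The share of all genes called higher then fell from 6.6% to 3.26%. Leaving out 1 library gave 18 to 40 calls in CKO. With the share of all genes in parentheses, these were 18 without CKO IRI 7 (1.79%), 22 without CKO sham 3 (2.61%) and 23 without CKO sham 2 (2.78%). There were 28 without CKO IRI 29 (4.04%) and 40 without CKO sham 1 (9.47%). In WT, leaving out 1 library gave 33 (without WT IRI 24, where 11% of all genes were called higher) to 42. 16 members were called in both genotypes under every alternative that tested them (4 of them not under the 5 FPKM filter), Rrm2, Tk1, Pcna, Mcm3, Mcm4, Mcm5 and Mcm7 among them. Between CKO IRI and WT IRI, 1 member (Dut) was called with a weight per library, where 5.8% of all genes were. With a pseudocount of 0.1 low genes changed more, Cdc6 in WT by 3.90 and Clspn by 4.20. With 1 library left out, Pold1 in WT ranged from -0.85 (without WT IRI 13) to 0.0891 (without WT sham 1, adjusted p = 0.898), where its sign reversed. Sham libraries share the numbers 1 to 3, but same-numbered libraries did not deviate together (r = 0.00, -0.03 and -0.00 over tested genes), and with a replicate block 0 members were called between sham groups. Read depth is unknown, so counting error could not be set, and levels under about 1 FPKM (Cdc6, Clspn, Exo1 in sham) rest on few fragments per kilobase.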

Other observations

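Histone genes listed by name as replication-dependent did not move with the 45 genes as a group. Transcripts of this class are known to rise in S phase, but the name does not show that each listed gene does so. Of 37 in the table, 22 were tested, and 6 were called higher and 6 lower in WT IRI, 5 higher and 6 lower in CKO IRI. Among all genes, 23.5% were called higher and 11.8% lower in WT IRI, and 6.6% and 2.02% in CKO IRI. The median changes of the histone genes were -0.25 and -0.47. Their summed level was 440 to 715 FPKM in the 6 sham libraries. After injury it was 274 to 356 in WT and 287 to 481 in CKO. Hist1h2bc alone read 161 to 225 FPKM in sham and 56.7 to 159 after injury, so the sum leans on that gene. Hist1h2ap (4.01 ± 0.22 in WT, 2.75 ± 0.21 in CKO) and Hist1h2ao (3.85 ± 0.25 and 2.49 ± 0.24) rose. Hist1h2ap read 0.885, 0.809 and 0.892 FPKM in WT sham and 24.7, 33.6 and 29.1 in WT IRI, without overlap.

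The abundant Hist1h2bc fell, from 169, 182 and 161 FPKM in WT sham to 56.7, 93.1 and 110.6 in WT IRI (-1.02 ± 0.20), and by 0.74 ± 0.19 in CKO. Hist1h2bg (-1.42 ± 0.26), Hist1h1e (-1.16 ± 0.26) and Hist2h2aa2 (-1.22 ± 0.29) also fell in WT. In CKO, Hist1h1e fell by 1.12 ± 0.25 and Hist2h2aa2 by 1.51 ± 0.28, while Hist1h2bg was not called. The genotype by injury interaction called 0 of the 22 tested histone genes. Histone genes have near-identical copies that can share reads, and the labels do not say whether polyadenylated RNA was selected, which most histone transcripts lack, so single values are uncertain.

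Some members changed the transcript that carried most of their level, as the authors' table assigns it. Cdc45 had 1 transcript above 0 in sham, ENSMUST00000000028.13, while ENSMUST00000096990.9 was listed at 0 in all 6 sham libraries, WT IRI 24 and CKO IRI 15 and read 7.67, 6.24, 3.73 and 5.84 FPKM in WT IRI 13, WT IRI 49, CKO IRI 7 and CKO IRI 29. In Uhrf1, ENSMUST00000113039.8 held 31.5% of the WT IRI level and 71.1% of the CKO IRI level, but read 0, 5.46 and 14.1 FPKM in the WT IRI libraries, so the assignment differed widely within a group.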
